A study of Mus musculus with 12 samples.

Results

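This account covers 10 genes of the epithelial-mesenchymal transition (EMT) in mouse breast tumours: the filament gene Vim, the cadherins Cdh1 and Cdh2, the adhesion gene Epcam, and the transcription factors Snai1, Snai2, Twist1, Twist2, Zeb1 and Zeb2. The 10 were found by symbol among 25116 rows of the deposited count table, 1 row each, in all 12 tumours. Tumours grew from E0771, a mouse triple-negative breast cancer line, placed in the mammary fat pads of C57BL/6J mice of the genotype Tie2CreER;ERKi, and were taken at day 22. Tie2CreER is a recombinase driven by the Tie2 promoter of endothelial cells and active once tamoxifen is given, and ERKi is the inducible knock-in gene for endorepellin, the C-terminal end of perlecan. The Tie2 promoter is also known to be active in some blood cells. Both groups carried these alleles: 5 tumours came from mice with the control injection (control) and 7 from mice given tamoxifen (induced). What the control injection held, and how old the mice were, is unstated in the labels. Tumours carry numbers there, without a word on whether each came from its own mouse, so p-values measure only the spread between these samples, which may be technical.

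In an EMT, epithelial cells lose E-cadherin junctions and take on the shape and motility of mesenchymal cells. The Snail, Twist and Zeb proteins are DNA-binding factors that drive the change, and Snail and Zeb proteins are known to repress the E-cadherin gene Cdh1 through E-boxes, short sites with the core CACCTG. A switch from E-cadherin to N-cadherin (Cdh2) and a rise in vimentin (Vim) are its usual readouts in breast carcinoma. Fibroblasts and leukocytes of the tumour stroma also express Vim and several of these factors. In RNA from whole tumours, fewer cells of a type and less RNA per cell cannot be told apart.

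Total counts were 18993192 to 28372821 per tumour. The 4 tumours control 1, control 2, induced 3 and induced 4 were set apart beforehand, by stroma genes in an earlier account of these same data. CPM is the count scaled to library size with a factor for library composition. The summed CPM of 10 fibroblast markers was 1223 to 3628 in these 4 and 557 to 1019 in the other 8, which is no separate support for the split. Leukocyte sums overlapped, at 194 to 1042 CPM in the 4 and 125 to 317 CPM in the 8, as did endothelial and pericyte sums. Control 1 also had the highest sum of 10 leukocyte markers, at 1042 CPM, where the next tumour, induced 4, had 489 CPM. Perlecan mRNA (Hspg2), whose C-terminal exons encode endorepellin, ranged from 467 to 658 CPM in control and from 419 to 698 CPM in induced tumours. The labels leave unstated if this count includes the knock-in transcript. Fold changes of the 9 tested members, correlations with their nearest genes and the medians of stromal, muscle and fat marker lists are given with and without these 4 tumours.

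The genes fell into 2 sets, one with levels far above the other. To compare genes, CPM was divided by the exonic length in kilobases. On this scale Vim, the intermediate filament protein of mesenchymal cells, had a level of 1141 ± 237 CPM per kb (SD, n = 12), Twist1 64.8 ± 14.3, Snai1 19 ± 2.89, Twist2 11.5 ± 3.08, Zeb2 8.61 ± 1.12 and Zeb1 7.45 ± 0.844. Epcam followed at 0.308 ± 0.183 CPM per kb, Snai2 at 0.299 ± 0.214, Cdh1 at 0.153 ± 0.0852 and Cdh2 at 0.0295 ± 0.0200. The lowest value of the upper set, Zeb2 in control 4 at 6.27 CPM per kb, was above the highest of the lower set, Snai2 in control 1 at 0.838, so the ranges of the 2 sets did not overlap.

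**Figure D1:**
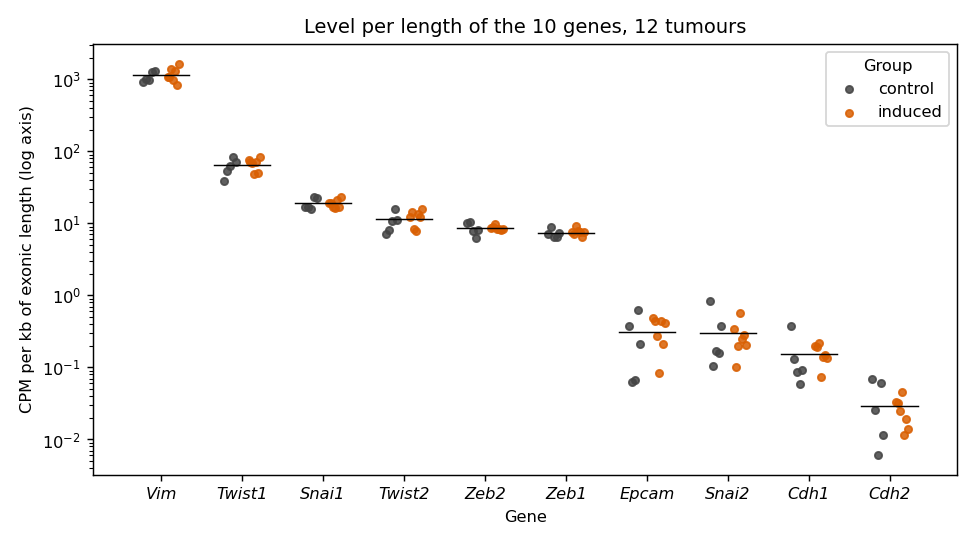
CPM per kb of exonic length on a log axis for each gene, with 1 point per tumour, control in grey and induced in orange, and a line at the mean of all 12. Vim is highest at 1141 CPM per kb, the 5 factors Twist1, Snai1, Twist2, Zeb2 and Zeb1 lie between 6.27 and 83.6, and Epcam, Snai2, Cdh1 and Cdh2 stay under 0.839.

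Vim had a median rank of 31 among 15170 tested genes with a length, a percentile of 99.8, and Twist1 a percentile of 95.6. The percentile was 80.2 for Snai1, 71.1 for Twist2, 63.4 for Zeb2 and 60.5 for Zeb1, and 12.1 for Epcam, 9.72 for Snai2 and 5.50 for Cdh1. In the order of levels, neighbours whose ranges over tumours overlapped were Snai1 and Twist2, Twist2 and Zeb2, Zeb2 and Zeb1, and all neighbours from Epcam down to Cdh2. Snai1 was nevertheless above Twist2 in 12 of 12 tumours, Zeb2 above Zeb1 in 11 of 12 and Cdh1 above Cdh2 in 11 of 12, while Epcam exceeded Snai2 in 6 of 12. Divided by the longest coding transcript in place of all exonic bases, Zeb2 rose to 18.8 CPM per kb and Zeb1 to 13.2, and Zeb2 then lay above Twist2 at 14.4, so the order among Twist2, Zeb1 and Zeb2 depends on the length used.

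The paralogs of the Snail and Twist families differed more in level than those of the Zeb family. Snai1 encodes Snail, and Snai2 encodes its close relative Slug. Per length, Snai1 exceeded Snai2 in 12 of 12 tumours, with a median ratio of 84.0 and a range from 20.1 in control 1 to 189 in induced 2. Twist1 and Twist2 are basic helix-loop-helix factors, and Twist1 exceeded Twist2 in 12 of 12 tumours, from 4.11 times in induced 6 to 8.08 times in induced 3. The zinc-finger factors Zeb1 and Zeb2 were closer to each other, with a ratio of 0.707 to 1.03. By the longest coding transcript this ratio was 0.572 to 0.833, with Zeb2 above Zeb1 in every tumour, and the median of Cdh1 to Cdh2 was 4.23. The ratio of Vim to Epcam per length was at least 2005 in every tumour, and that of Cdh1 to Cdh2 had a median of 6.82 and ran from 0.962 in control 4 to 14.1 in control 3, on few counts for both genes.

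Vim (ENSMUSG00000026728) is a gene of chromosome 2 (13573927 to 13582826, plus strand), and all positions here are on GRCm38. Control tumours 1 to 5 held 4392, 4848, 4564, 5883 and 6219 CPM, and induced tumours ran from 3884 CPM through a median of 5041 to 7819 CPM. The lowest and the highest tumours were both induced, induced 6 and induced 7, and the groups overlapped throughout.

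Twist1 (chromosome 12, 33957671 to 33959829, plus strand), a factor of the cranial and limb mesenchyme, was at 62.5, 86.4, 102.8, 136 and 114 CPM in control 1 to 5 and at 79.6, 117 and 135 CPM in the lowest, median and highest induced tumour. Twist2 (chromosome 1, 91801461 to 91848028, plus strand), its paralog of the dermis, was at 22.9, 25.6, 34.6, 49.6 and 35.7 CPM in the control tumours and at 24.4, 39.4 and 50.8 CPM in the induced ones. Both genes were lowest in control 1 and Twist2 was highest in induced 7, so both groups spanned most of the range. Of the exonic bases of Twist2, 46.5% also lie in exons of Gm29100 on the opposite strand, and with strand use not given in the sources used here, its reads and those of Gm29100 cannot be told apart. Gm29100 itself was counted at 61 to 170 reads per tumour, a mean of 4.15 CPM.

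Snai1 (chromosome 2, 167538195 to 167542814, plus strand) was at 27.4, 27.0, 25.2, 37.7 and 36.0 CPM in control 1 to 5 and at 26.7, 31.1 and 38.1 CPM in the lowest, median and highest induced tumour. Zeb1 (chromosome 18, 5591860 to 5775467, plus strand) was at 72.9, 90.8, 67.1, 66.2 and 75.7 CPM in the control tumours and at 66.3, 77.6 and 93.4 CPM in the induced ones. Zeb2 (chromosome 2, 44983632 to 45117395, minus strand) was at 200.2, 210, 156, 125 and 159 CPM in control and at 163, 169 and 194 CPM in induced tumours. For Zeb2, control tumours held both the lowest value, in control 4, and the 2 highest, in control 1 and control 2, and the 7 induced tumours lay inside that range. These 3 genes varied less between tumours than the Twist genes: the coefficient of variation over 12 tumours was 11.3% for Zeb1, 13.0% for Zeb2 and 15.2% for Snai1, against 22.1% for Twist1 and 26.9% for Twist2. The median over 9269 tested genes with a mean of at least 10 CPM was 15.5%. Zeb2 shares 3.27% of its exonic bases with Zeb2os and Zeb1 1.93% with Gm10125, both on the opposite strand.

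E-cadherin, N-cadherin, the epithelial adhesion molecule Epcam and Slug were each represented by a handful of reads. Cdh1 (chromosome 8, 106603351 to 106670246, plus strand) had 49, 17, 8, 6 and 9 counts in control 1 to 5 and 9 to 20 counts in induced tumours, with a median of 0.672 CPM in the induced group. Cdh2 (chromosome 18, 16588877 to 16809246, minus strand) had 16, 6, 1, 11 and 2 counts in control and 2 to 10 in induced tumours. It averaged 0.281 ± 0.232 CPM in control and 0.208 ± 0.0969 CPM after tamoxifen (SD, n = 5 and n = 7), and it was the 1 member removed as too low in counts, so it has no test. Control 1 held the most counts of both cadherins.

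Epcam (chromosome 17, 87635979 to 87651129, plus strand) had 24, 4, 3, 30 and 10 counts in control 1 to 5 and 5 to 24 in induced tumours, a median of 0.471 CPM and 0.915 CPM. Snai2 (chromosome 16, 14705852 to 14709385, plus strand) had 49, 6, 7, 7 and 16 counts in control and 4 to 31 in induced tumours, with the highest values in control 1, at 1.69 CPM, and induced 4, at 1.14 CPM. The exact 95% Poisson interval of the Cdh1 count in control 1 was 36.3 to 64.8, or 1.25 to 2.24 CPM, and that of control 4, the lowest tumour, 2.20 to 13.1, or 0.0997 to 0.591 CPM, so these 2 differed by more than counting error. For Cdh2 the interval was 9.15 to 26.0 in control 1 and 0.0253 to 5.57 in control 3. These intervals cover counting error only, and the counts carry no molecular identifiers.

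The promoters of Epcam and Snai1 are shown because they held the E-box that Snail and Zeb proteins are known to bind. The windows of the other members scanned, Vim, Twist1, Twist2 and Zeb2, held none. Cdh1 and Snai2 had no promoter entry, and Zeb1 and Cdh2 were left out of the scan. Each window is 300 bases from RefSeq on GRCm38.p6, 250 before and 50 after a start listed there for the gene, 5′ to 3′ on the coding strand. For Epcam and Snai1 this is the gene start given above. The Vim window begins at 13574061, inside the gene, and Zeb2 had several windows, some of them inside the gene. Bases are in lower case with CACCTG or its reverse complement CAGGTG in capitals.
Epcam promoter, chr17:87635729-87636028, plus strand: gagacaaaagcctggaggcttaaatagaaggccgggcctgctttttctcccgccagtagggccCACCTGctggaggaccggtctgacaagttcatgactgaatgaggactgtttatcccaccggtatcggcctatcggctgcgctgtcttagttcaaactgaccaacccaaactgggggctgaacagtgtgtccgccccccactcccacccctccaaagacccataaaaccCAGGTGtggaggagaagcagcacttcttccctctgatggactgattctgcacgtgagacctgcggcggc
Snai1 promoter, chr2:167537945-167538244, plus strand: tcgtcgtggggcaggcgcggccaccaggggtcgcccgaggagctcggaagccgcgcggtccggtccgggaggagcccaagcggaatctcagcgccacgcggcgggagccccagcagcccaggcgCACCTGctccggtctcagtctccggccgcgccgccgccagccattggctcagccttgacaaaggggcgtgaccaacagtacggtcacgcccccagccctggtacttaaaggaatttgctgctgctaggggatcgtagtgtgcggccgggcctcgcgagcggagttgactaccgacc

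The Epcam window held 2 sites, with first bases at -187 and -19 relative to the start, and the Snai1 window 1 site at -126. Of 32851 promoters of this length in the table, 20.2% held at least 1 CACCTG on either strand, and 72.3% held the wider E-box CANNTG, which includes CACCTG. Of the 2 genes that share the motif, Epcam was at 0.676 ± 0.401 CPM and Snai1 at 30.8 ± 4.69 CPM (SD, n = 12). A match to 6 letters is a description of the sequence and shows no binding.

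No member differed between induced and control tumours beyond the spread of the tumours. The comparison sets mice given tamoxifen against mice with the control injection, and both groups carried the alleles. An effect of tamoxifen itself therefore cannot be told apart from one of endothelial endorepellin expression. By edgeR's quasi-likelihood test, 0 of 9 tested members had an adjusted p under 0.05, against 0% of all 15199 genes tested, and the adjusted p was 0.999886 for each. With all 12 tumours, no member had an unadjusted p under 0.05 in edgeR or DESeq2. In limma-voom 1 did, Cdh1, with a log2 fold change of 0.71 and an adjusted p of 0.727 by limma. Over all genes 324 had an unadjusted p under 0.05 in edgeR, 391 in DESeq2 and 996 in limma-voom, and none passed after adjustment in any of the 3. Over all 12 tumours the CPM values of the groups overlapped for all 10 members, and separate groups were seen in 0.0526% of the genes in the fit.

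Vim averaged 5181 ± 819 CPM in the control group (SD, n = 5) and 5575 ± 1342 CPM after tamoxifen (SD, n = 7), a log2 fold change of 0.11 (SE 0.18, edgeR) with a 95% interval from -0.28 to 0.49. Twist1 was at 100.4 ± 27.9 and 109 ± 21.1 CPM, with 0.12 (SE 0.19), and Twist2 at 33.7 ± 10.5 and 38.3 ± 9.60 CPM, with 0.19 (SE 0.22) and an interval from -0.28 to 0.65. These intervals cover folds from 0.822 to 1.41 for Vim and from 0.824 to 1.57 for Twist2. The narrowest intervals belonged to the Zeb genes and Snai1. Zeb1 was at 74.5 ± 9.91 and 78.0 ± 8.14 CPM, a log2 fold change of 0.064 (SE 0.10) and a fold interval from 0.900 to 1.22, and Zeb2 at 170.0 ± 34.8 and 173 ± 10.2 CPM, with 0.022 (SE 0.12) and folds from 0.854 to 1.21. Snai1 was at 30.7 ± 5.75 and 30.9 ± 4.27 CPM, with 0.013 (SE 0.13) and folds from 0.830 to 1.23.

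The 3 rare members that could be tested had wide intervals. Cdh1 was at 0.675 ± 0.582 and 0.720 ± 0.227 CPM (SD, n = 5 and n = 7), with a log2 fold change of 0.063 (SE 0.45, edgeR) and folds from 0.537 to 2.03. Epcam had 0.32 (SE 0.57), with folds from 0.536 to 2.90, and Snai2 -0.24 (SE 0.53), with folds from 0.385 to 1.86. A fold of 2 upward was inside the intervals of Cdh1 and Epcam, and their lower bounds were 0.537 and 0.536. Of the 9 tested members 8 had a fold change above 0 and 1 below, where 49.8% of all genes were above and 50.2% below 0, and none of these directions is a call. The value of Cdh1 depended on control 1, without which it was 0.74, and Snai2 turned to 0.49 without the same tumour. Without control 1, control 2, induced 3 and induced 4, the log2 fold changes were 1.01 (SE 0.40) for Cdh1, 0.20 (SE 0.098) for Zeb2 and 0.39 (SE 0.56) for Epcam. They were 0.0060 for Snai2, -0.045 for Twist1, 0.11 for Twist2, -0.026 for Snai1, 0.089 for Zeb1 and 0.00029 for Vim. No gene passed the threshold. In the remaining tumours the groups did not overlap for Cdh1 and Zeb2, and the share of all genes without overlap was not computed there.

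**Figure D2:**
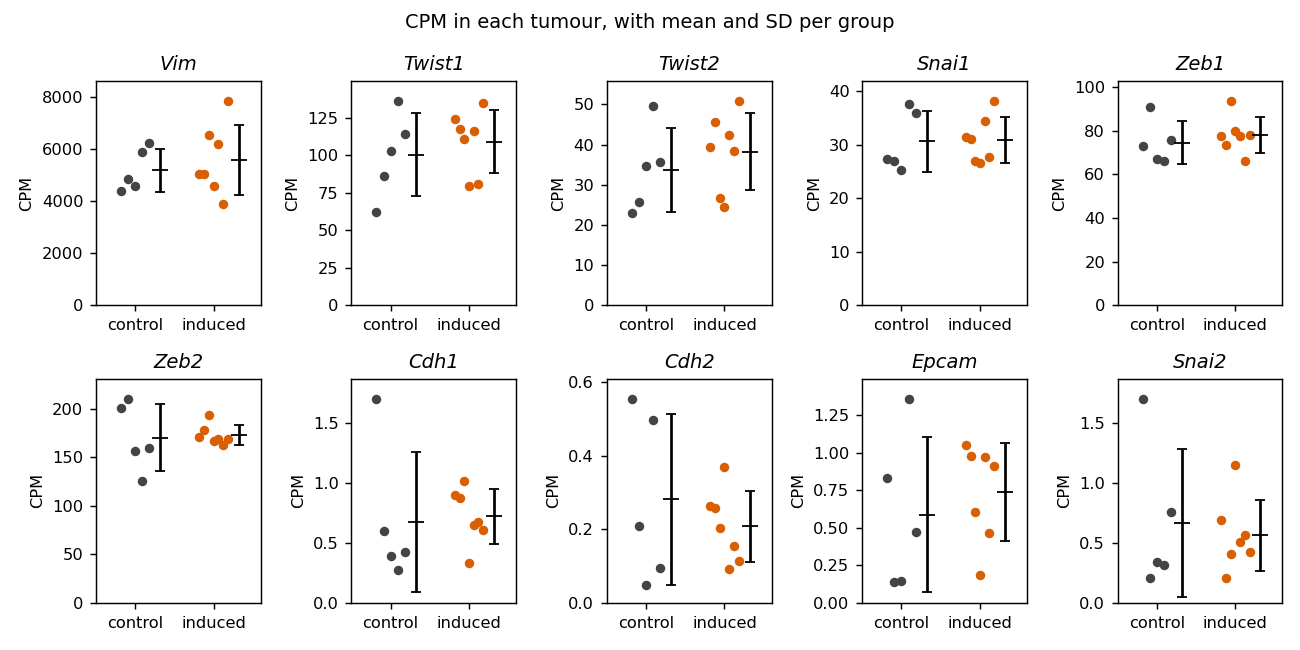
CPM of each gene in every tumour on axes that start at 0, control in grey and induced in orange in the order of their numbers, with the mean and SD of each group beside the points. Control and induced points overlap in every panel, and 1 control tumour, control 1 at 1.69 CPM, lies above all others for both Cdh1 and Snai2.

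**Figure D3:**
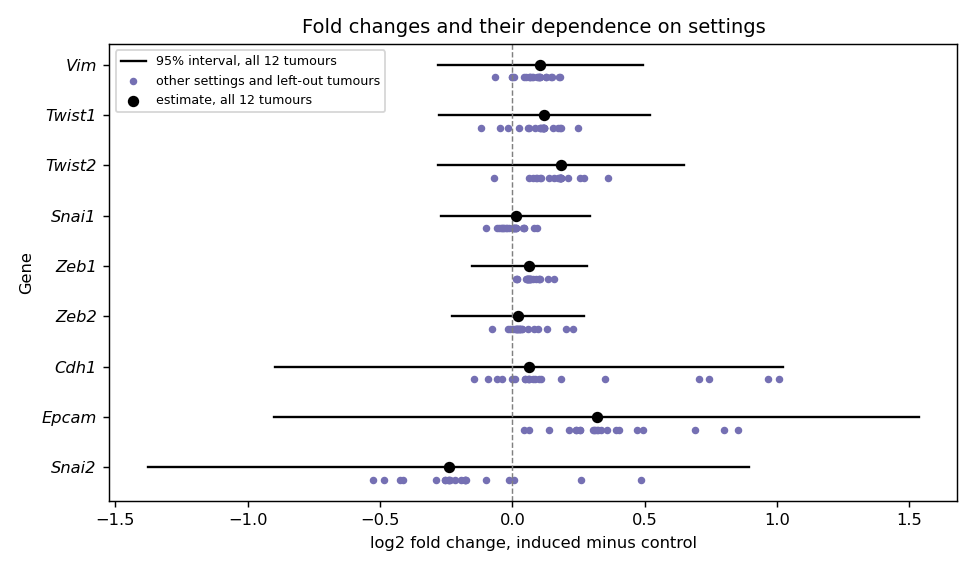
The log2 fold change of induced minus control for the 9 tested genes, with the 95% interval as a line and, below it, the values under 23 other settings and left-out tumours, with fewer for genes lost to a filter. All intervals cover 0, and Cdh1, Epcam and Snai2 have the widest, with Cdh1 running from -0.90 to 1.02.

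The 4 lowest Twist2 values, from 22.9 to 26.8 CPM, were those of control 1, control 2, induced 3 and induced 4, the 4 tumours with the highest fibroblast-marker sums, and the other 8 tumours held 34.6 to 50.8 CPM. Twist1 was at 62.5 to 111 CPM in the same 4 and at 80.9 to 136 CPM in the others, and Snai1 at 26.7 to 27.4 CPM and 25.2 to 38.1 CPM. By count, 3 of the 4 highest values of Zeb1, and 3 of the 4 highest of Zeb2, came from these 4 tumours, at up to 93.4 CPM for Zeb1 in induced 3 and 210 CPM for Zeb2 in control 2. Control 1, lowest for Twist2, was also among the 4 lowest for Zeb1, at 72.9 CPM. Over 12 tumours Twist2 had rho = -0.287 with Zeb1 and rho = -0.378 with Zeb2 (permutation test, adjusted p = 0.758 and 0.513), with Pearson's r = -0.476 and -0.641 (permutation, adjusted p = 0.272 and 0.0790). Within the other 8 tumours rho was 0.238 and 0.262, and r was 0.164 and -0.194, and no such pair passed. For Snai2 the 2 highest tumours, control 1 and induced 4, were also those with the highest fibroblast sums, 3628 and 2159 CPM, and the highest leukocyte sums. The part of stromal cells in these values was not tested.

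**Figure D4:**
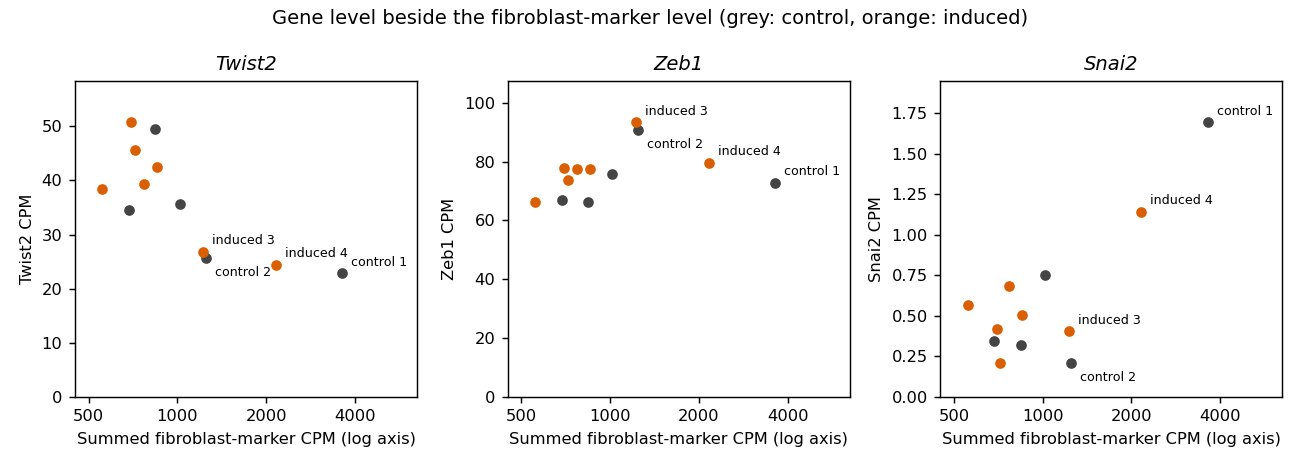
CPM of Twist2, Zeb1 and Snai2 in each tumour against the summed CPM of 10 fibroblast markers on a log axis, control in grey and induced in orange. The 4 labelled tumours have the lowest Twist2 levels, under 26.9 CPM, and Snai2 is highest in control 1 and induced 4.

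Correlations between members were computed for 36 pairs of the 9 tested genes within the 8 tumours other than those 4. None passed adjustment over the 36 pairs by Spearman's rho, and 5 had an unadjusted p under 0.05. The highest were Vim with Snai1 (rho = 0.905, exact permutation test, two-sided, p = 0.00456, adjusted p = 0.0821, n = 8), with Pearson's r = 0.868 (exact permutation p = 0.00506, adjusted p = 0.0911) and 0.899 without the 2 tumours farthest from the median of Vim, and Cdh1 with Zeb2 at the same rho. For Cdh1 with Zeb2, Pearson's r was 0.882 (exact permutation p = 0.000471, adjusted p = 0.017) and 0.841 without 2 tumours, and Cdh1 had only 6 to 17 counts in these 8. In these 8 the groups did not overlap for either gene, with no share over all genes to set beside this. Cdh1 was at most 0.424 CPM in control and at least 0.610 CPM in induced tumours, and Zeb2 at most 159 and at least 163 CPM. The permutation took no account of group, so a group difference and a link between the 2 genes cannot be told apart here. Over all 12 tumours, where the split of those 4 from the 8 enters, 1 of 36 pairs passed, Twist1 with Twist2 (rho = 0.895, permutation test, adjusted p = 0.0083). The factors for library composition followed the same split. They were 1.061 in control 1, 1.047 in control 2, 1.006 in induced 3 and 1.084 in induced 4, and at most 0.9986 in the other 8. The part of library composition in this pair was not tested. By Pearson's r no pair passed over the 12, and this pair had r = 0.801 (permutation, adjusted p = 0.0569) and 0.636 without the 2 tumours farthest from the median of Twist1. Within the 8 tumours that pair had rho = 0.833 (exact permutation p = 0.0154, adjusted p = 0.138) and r = 0.642 (exact permutation p = 0.0756, adjusted p = 0.302), or 0.800 without 2 tumours.

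Genes with the most similar order of tumours were found among 10962 tested genes by Spearman's rho of log2 CPM over 12 tumours, as a description in which all values of a tumour share its library and depth. What the highest of so many values reaches by chance was not computed. The 8 tumours are part of the 12 used to pick the genes, so their values are no separate check. For Snai1 they were Slc2a1, the glucose transporter GLUT1 (0.937), Rbm38 (0.930) and Aldoa, a glycolytic aldolase (0.909). In the 8 tumours these values were 0.929, 0.833 and 0.881. For Twist2 they were Dap (0.986 over 12 and 0.952 over 8), Tsg101 (0.972 and 0.929) and the ribosomal protein gene Rps10 (0.972 and 0.929). For Twist1 they were Rpl12 (0.965 and 1), Mmgt2 (0.958 and 0.881) and Rps18 (0.958 and 0.976), of which Rpl12 and Rps18 also encode ribosomal proteins. Zeb1 was most like Gabpa (0.951 and 0.929), Cep68 (0.951 and 0.929) and Mmut (0.951 and 0.833). For Zeb2 the values were 0.937 and 0.929 with Fnip2, 0.923 and 0.905 with Npc1, a lysosomal cholesterol transporter, and 0.916 and 0.786 with Sgms2. Vim was most like Cavin3 (0.951 and 0.881), Ank (0.951 and 0.952) and Calm2, a calmodulin gene (0.937 and 0.857). The values over 12 tumours were lower for the rare genes. The highest were 0.867 for Cdh1 with Dio2 (0.905 over 8), 0.846 for Epcam with Shld1 (0.810 over 8) and 0.860 for Snai2 with Serpinb1a (0.643 over 8).

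Other epithelial genes were also near the floor. Of 20 fixed epithelial genes 19 were in the table, none had a mean over 10 CPM, 10 were under 1 CPM in every tumour, and 8 passed the filter. The most abundant were Ocln, a tight-junction protein, at 9.72 CPM (range 7.59 to 14.0), and Ovol1, an epithelial transcription factor, at 6.77 CPM (4.70 to 10.5). The keratins Krt8 and Krt18 of simple epithelia, named here after their values were seen, were at 1.42 CPM and 0.336 CPM. The cells are labelled as a breast cancer line, and these markers of breast epithelium, summing to 18.3 to 29.7 CPM per tumour, were at the low levels just given. After tamoxifen 4 of the 8 tested had higher and 4 lower estimates, and none passed, with a median log2 fold change of -0.061, where the median over all genes was -0.00083. Elf3, an epithelial Ets factor, averaged 2.17 ± 0.705 CPM (SD, n = 5) against 1.38 ± 0.776 CPM after tamoxifen (SD, n = 7), and Cldn4, a claudin, 0.213 ± 0.243 against 0.533 ± 0.411 CPM.

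Among 7 catenin partners of the cadherins, 3 had a mean over 10 CPM. Ctnnb1 (beta-catenin) was at 379 CPM (313 to 448), Ctnna1 (alpha-catenin) at 212 CPM (182 to 257) and Ctnnd1 (p120-catenin) at 38.3 CPM (24.1 to 51.0). Jup (plakoglobin, of desmosomes) was at 7.26 CPM and the neural catenin Ctnnd2 at 1.08 CPM, and the other two, Ctnna2 and Ctnna3, named after their values were seen, were at 0.0652 and 0.177 CPM. Of 5 tested partners, 3 were higher and 2 lower, none passed, and the median log2 fold change was 0.013. Among 8 other cadherins in the table, the most abundant were Cdh13, a cadherin anchored by a lipid tail, at 132 CPM (92.3 to 183), and Cdh5, the cadherin of endothelial junctions, at 43.5 CPM (31.4 to 62.0). Of 4 tested, 1 was higher and 3 lower with a median of -0.31, and none passed. Cdh11, a cadherin of fibroblasts, averaged 2.29 ± 3.08 CPM (SD, n = 5) against 0.738 ± 0.657 CPM after tamoxifen (SD, n = 7) and was highest in control 1, at 7.68 CPM. Its log2 fold change was -1.62, and -0.36 without control 1.

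Other regulators of EMT were present next to the Twist and Zeb genes. Of 12 fixed regulators 9 were in the table and 8 were tested, with 4 higher, 4 lower, none past the threshold and a median log2 fold change of 0.022. Tcf4, a basic helix-loop-helix factor, was at 251 CPM (122 to 369), and Prrx1, a mesenchymal homeobox factor, at 234 CPM (165 to 338), with 212 ± 23.5 CPM (SD, n = 5) against 250.1 ± 51.2 CPM after tamoxifen (SD, n = 7). Sox9, a factor of cartilage, ranged from 85.8 to 373 CPM. The summed level of these regulators was 549 to 675 CPM in control 1, control 2, induced 3 and induced 4 and 844 to 1207 CPM in the other 8, the same 4 tumours as the lowest Twist2 values.

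Of 14 mesenchymal effector genes 13 had a mean over 10 CPM, the exception being Tagln, an actin-binding protein of smooth muscle, at 1.54 CPM (named after its value was seen). Of these 13, Lox, also named after its values were seen, had a mean of 13.8 CPM. It ranged from 0.763 CPM to 82.4 CPM in induced 4. All 14 were tested, 9 were higher and 5 lower after tamoxifen with a median of 0.021, and none passed. Itgb1, the shared beta chain of matrix integrins, was at 883 CPM (696 to 1144) and Cald1, an actin-binding protein, at 660.3 CPM (472 to 804). Fn1, the matrix protein fibronectin, averaged 62.3 ± 105 CPM (SD, n = 5) against 27.6 ± 40.0 CPM after tamoxifen (SD, n = 7), with 250.4 CPM in control 1. Its log2 fold change was -1.17 with all tumours, 0.85 without control 1 and -0.30 without the 4 tumours. That of Tnc, a matrix glycoprotein of stroma, was -0.77, -0.25 and -0.32. Smooth muscle actin Acta2 averaged 36.9 ± 13.0 against 25 ± 11.5 CPM, and Tnc 58.4 ± 40.9 against 34.3 ± 16.5 CPM.

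Markers of other cells that express members were compared in the same fit. The fibroblast list had 0 higher and 9 lower of 9 tested, with a median of -1.37, and the leukocyte list 0 higher and 9 lower of 9, with a median of -0.83. Without control 1 these medians were 0.71 and -0.0069, without the 4 tumours they were -0.048 and -0.15, and without induced 4 the fibroblast median was -2.60. The fibroblast sum ran from 686 to 3628 CPM in control and from 557 to 2159 CPM in induced tumours, and the leukocyte sum from 208 to 1042 and from 125 to 489 CPM. Of 6 pericyte genes 2 were higher, of 10 endothelial genes 5, of 8 skeletal muscle genes 3 and of 5 tested adipocyte genes 1, with medians of -0.065, 0.031, -0.19 and -0.66. Without control 1 the pericyte median was 0.13 and the adipocyte median 0.19. Without control 4 the skeletal muscle median was 1.99. Without the 4 tumours the 4 medians were -0.15, -0.0082, -1.35 and -0.16. None of the 86 genes tested from the 12 lists passed by edgeR, and 4 had an unadjusted p under 0.05. Of 7 basal mammary and skin genes 5 were in the table and none passed the filter, and their sum was at most 4.09 CPM in any tumour.

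In the authors' deposited table the log2 fold change was 0.11 for Vim, 0.12 for Twist1, 0.19 for Twist2, 0.01 for Snai1, 0.06 for Zeb1, 0.02 for Zeb2, 0.05 for Cdh1, 0.32 for Epcam, -0.25 for Snai2 and -0.45 for Cdh2, each with an adjusted p of 0.994. These come from the same counts and are no separate measurement.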

How the data were processed

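RNA-seq of 12 tumours, 5 control and 7 induced, was analysed. Per the labels' protocols, libraries were made with a SMARTER mRNA-Seq kit from total RNA. Per the submitters' processing notes the build was GRCm38 (mm10). The aligner, annotation and strand setting were not given in the sources used here, nor was the test of the authors' own comparison. Groups come from sample titles, since the protocol text for growth describes another cell type. The deposited table held raw counts by Ensembl gene, per the file headers. It also held the authors' rlog values (log2 scale). For their comparison the authors gave log2 fold changes, a signed fold score and p-values. Only counts were tested.

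The members and gene lists were chosen with earlier results of these data known. In edgeR 4.0.16 (R 4.3.3), filterByExpr (minimum count 10) kept 15199 of 25116 genes, TMM factors were used, and groups were compared by the robust quasi-likelihood test, two-sided, at a Benjamini-Hochberg adjusted p of 0.05 across the genes kept. CPM used TMM factors, and log2 CPM a prior count of 2. Lengths and positions come from GENCODE mouse release 21 (GRCm38). The fit was tested on simulated data. The rule named all 10 members, of each list at most 4 genes with the smallest p and the 2 most abundant, and for each tested member the 3 genes with the highest rho above a mean log2 CPM of 1 and with a symbol that is no predicted name. Pairs were compared with scipy 1.17.1 ranks and exact permutations in the 8 tumours, and with 100000 resamples in all 12. Alternatives were other filters and size factors, DESeq2 1.42.0, limma-voom (limma 3.58.1), estimation that was not robust, a replicate block, and left-out tumours. Chi-square per gene between tumours of a group was 13.3 to 214, so no 2 tumours of the same group agreed within sampling noise. Promoter windows were scanned for 6 members. Windows on chromosome 18, which holds Zeb1 and Cdh2, were left out of the scan, and Cdh1 and Snai2 had no RefSeq promoter entry.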

Additional observations from a re-analysis of the deposited data

Results flagged for a closer look

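Of 44 groups of values examined, 7 had a tumour far from the rest of its group by Dixon's ratio, which chance gives in about 1 in 20 groups. Of the 44 groups, 20 were of members, and 1 of these 20 was flagged, which is the rate that chance gives. It was Cdh1 in control 1, at 1.69 CPM, where the next control tumour held 0.595 CPM. The other flags were for sums of marker lists, and all groups come from the same tumours. Control 1 was also apart for the fibroblast sum (3628 CPM, next 1247) and the leukocyte sum (1042 CPM, next 328). Induced 4 was apart for the fibroblast sum (2159 CPM, next 1223) and the skeletal muscle sum (468 CPM, next 211). Control 4 was apart for skeletal muscle (521 CPM, next 47.7), and induced 3 for basal mammary and skin genes (4.09 CPM, next 0.949). The part of these tissues in the member values was not tested.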

How the results depend on the processing

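No member and no gene passed the threshold under any of 23 settings, and the smallest adjusted p of a member was 0.727 (limma-voom, Cdh1). Of 204 member values under alternatives, 177 kept their direction and 27 reversed. Epcam and Zeb1 kept theirs in every setting run, though Epcam ran from 0.045 without control 2 to 0.85 without control 4. With limma-voom, Vim was -0.065 and Snai1 -0.050. Without control 1, control 2, induced 3 and induced 4, Snai1 was -0.026, Snai2 0.0060 and Twist1 -0.045. Without control 1 and control 2, an alternative chosen after seeing the data, Vim was -0.00086, Snai1 -0.10, Snai2 0.26, Twist1 -0.12 and Twist2 -0.071. Leaving out each tumour in turn gave -0.15 to 0.74 for Cdh1, -0.060 to 0.092 for Snai1, -0.53 to 0.49 for Snai2, -0.018 to 0.25 for Twist1 and -0.078 to 0.10 for Zeb2. The labels do not say whether the shared numbers 1 to 5 pair the tumours. Deviations from the group means correlated at -0.313, -0.507, -0.512, -0.531 and 0.21 between tumours of the same number, and these values cannot settle whether they shared a batch. With the replicate block Snai1 was -0.020, Cdh1 0.35 and Epcam 0.69, with 0 genes called, and without the block in the same 10 tumours (also chosen after seeing the data) Snai1 was -0.034. The list medians moved beyond the tumour spread in 8 of 276 values. Without the 4 tumours the fibroblast median was -0.048 and the leukocyte median -0.15, and without control 1 and control 2 they were 0.80 and 0.17. Left-out single tumours gave -2.60 to 0.71 for fibroblasts, -1.01 to -0.0069 for leukocytes and -0.64 to 1.99 for skeletal muscle. With a filter of 1 CPM in 5 tumours the other-cadherin median was 0.028, on fewer genes. Pairs passing adjustment were 0 of 36 in the 8 tumours, 1 over all 12 (0 by Pearson's r) and 1 by Pearson's r in the 8. With the longest coding transcript as length, chosen after seeing the data, levels were 2467 CPM per kb for Vim, 13.2 for Zeb1 and 18.8 for Zeb2. The cause of these shifts was not tested. Depth limits Cdh1, Cdh2, Epcam and Snai2, which had at most 49 counts in any tumour.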
